A study of Rattus norvegicus with 12 samples.

Results

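The 9 genes described here encode the PPAR, PGC-1 and ERR regulators of cardiac energy metabolism and the factors they act with: Ppara, Ppard, Rxra, Ppargc1a, Ppargc1b, Esrra, Esrrg, Nrf1 and Tfam. They were chosen by name, with earlier results of these data known, and are 9 of the 17602 genes in the deposited expression table, in which each has 1 row. RNA was sequenced from 12 cardiac muscle samples of ZSF1 rats, 4 in each of 3 groups: lean, obese, and obese given nicotinamide (NAM), a form of vitamin B3 from which cells make NAD+. NAM was given at 24 mM in drinking water between the ages of 8 and 20 weeks, and a question of the study was what raising NAD+ does to the heart in a rat model of heart failure with preserved ejection fraction. The lean and the untreated obese rats were of the same strain and housing, and the labels give no age at sampling for them. The labels call the obese rats obese through diet, while the ZSF1 obese rat is known as a cross whose offspring become obese when they inherit defective leptin receptor alleles from both parents, on a hypertensive background.

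PPARα and PPARδ are nuclear receptors that bind fatty acids and, paired with their partner RXRα, switch on genes of fatty acid uptake and oxidation. PGC-1α and PGC-1β are coactivators that carry no DNA-binding domain of their own and dock on PPARs, on the estrogen-related receptors ERRα and ERRγ, and on NRF1. Through these partners they raise the genes of oxidative phosphorylation and of TFAM, the factor that packages and transcribes mitochondrial DNA, and in the heart this network sets the capacity to burn fat.

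Promoter sequences were taken from RefSeq on the GRCr8 assembly, a newer build than the one behind the expression values, and 8 of the 9 genes had an entry; Ppard did not. Of the motifs searched on both strands, 3 promoters held a match, and these 3 are shown as the 250 bases before the annotated start, 5′ to 3′, with the matched bases in capitals. They are shown because they are the promoters of these genes that hold a match to a motif of NRF1, CREB or GABP, factors known to act on genes of mitochondrial metabolism.
Ppara: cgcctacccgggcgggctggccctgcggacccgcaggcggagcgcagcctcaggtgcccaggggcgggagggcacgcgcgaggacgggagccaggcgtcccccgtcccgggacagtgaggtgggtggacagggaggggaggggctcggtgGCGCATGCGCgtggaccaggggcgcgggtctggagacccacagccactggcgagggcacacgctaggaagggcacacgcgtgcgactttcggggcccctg
Ppargc1a: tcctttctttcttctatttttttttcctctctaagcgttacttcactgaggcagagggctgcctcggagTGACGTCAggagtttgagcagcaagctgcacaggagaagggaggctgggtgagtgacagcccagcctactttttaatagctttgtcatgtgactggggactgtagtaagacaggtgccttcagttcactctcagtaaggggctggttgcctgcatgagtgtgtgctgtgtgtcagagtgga
Tfam: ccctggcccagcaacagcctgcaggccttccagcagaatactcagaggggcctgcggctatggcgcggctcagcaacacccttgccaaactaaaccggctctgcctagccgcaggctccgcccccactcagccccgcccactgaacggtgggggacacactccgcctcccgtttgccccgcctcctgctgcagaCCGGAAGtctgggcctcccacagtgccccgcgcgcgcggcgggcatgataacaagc
The Ppara stretch is chr7:118712357-118712606 on the plus strand, and its capitals cover a match to the NRF1 motif GCGCATGCG at bases -100 to -92 before the start, together with an overlapping match on the other strand at -99 to -91. The Ppargc1a stretch is chr14:63634058-63634307 on the plus strand, and it holds the CREB motif TGACGTCA at -181 to -174, the element through which cyclic AMP is known to act. The Tfam stretch is chr20:17355123-17355372 on the plus strand, and it holds CCGGAAG, the core motif of GABP, at -56 to -50. Among all 33469 promoter windows of 300 bases in the same table, 1.52% held the NRF1 motif, 1.83% the CREB motif and 8.75% the GABP motif. G and C made up 73.7% of the Ppara window, 67.7% of that of Tfam and 50.3% of that of Ppargc1a. The median over all windows was 51.7%. The shares were not matched for this, and the share of windows with any of the motifs was not counted. The motifs TCAAGGTCA (0.433% of all windows) and its core AAGGTCA (4.61%), bound by ERRs, CACGTG (6.42%) and the DR1 repeat bound by PPAR and RXR (0.0538%) had no match in the windows of these genes. A match is a string of letters in the reference and not a measured binding site.

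Expression was deposited as TPM, the length-corrected part that a gene takes of all transcripts in its sample, which allows levels of different genes to be compared but keeps no sequencing depth. The depth behind each value is therefore unknown, and the precision rests on the spread between the 4 samples of a group, which the labels do not tie to separate animals. Mitochondrially encoded genes took 66.2% to 70.4% of TPM in lean, 74.6% to 75.5% in obese and 69.9% to 73.8% in NAM-treated samples, so nuclear genes as a whole had a smaller share in obese hearts. For this reason every change was tested as deposited and after rescaling, and some are printed on 1 scale only. Rescaling brings the median tested gene of every sample to one level (factors of 1.03 to 1.09 in lean, 0.841 to 0.928 in obese and 0.994 to 1.17 in NAM-treated samples). Over the 10526 tested genes the median log2 change between obese and lean was -0.20 as deposited and 0.00 rescaled, that between NAM-treated and untreated obese was 0.25 and -0.01, and that between NAM-treated obese and lean 0.05 and 0.00. All 12 cardiomyocyte markers were expressed in every group, which fits the labelled tissue. Their summed TPM was 18180 to 21079 in lean, 12935 to 14736 in obese and 15530 to 17458 in NAM-treated samples, and in obese against lean 10 of the 12 passed as lower as deposited and 1 rescaled. In such bulk samples fewer cells of a type and less RNA per cell cannot be told apart.

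Ordered by mean TPM over the 12 samples, Tfam stood at the percentile 82.9 of the tested genes, Ppargc1a at 62.8, Ppara at 62.6, Esrrg at 59.0 and Esrra at 53.4. Ppard at 25.5, Rxra at 23.1, Nrf1 at 20.7 and Ppargc1b at 4.14 were low. All 9 passed the filter of at least 1 TPM in at least 4 samples, but Ppargc1b did so with exactly 4 samples, 3 lean and 1 NAM-treated, so its passing depended on the group in which it was highest.

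**Figure D1:**
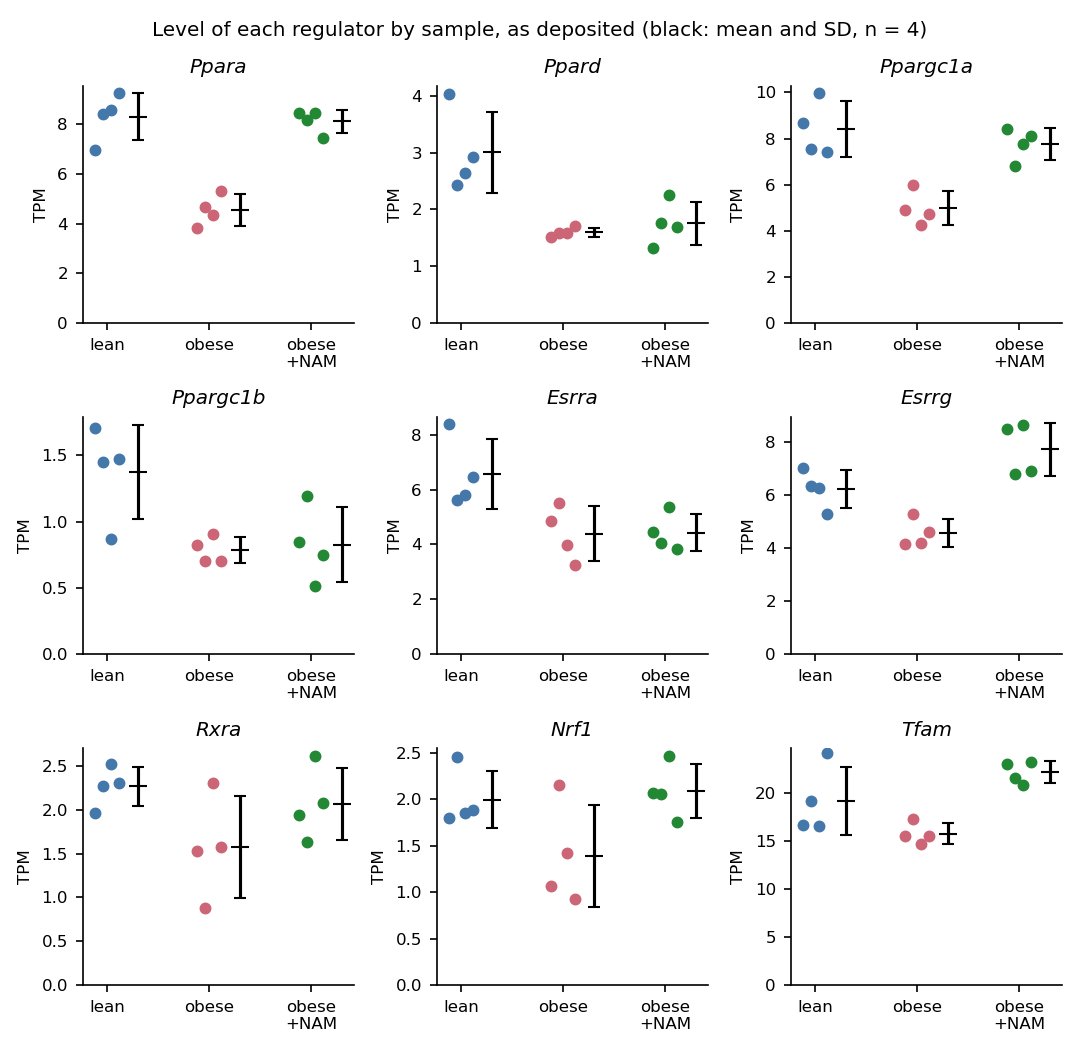
TPM of each of the 9 genes in each sample, as deposited, with 1 point per sample (blue lean, red obese, green NAM-treated obese) and the group mean and SD in black; the vertical axes start at 0. For Ppara, Ppargc1a, Esrrg and Tfam the green points lie above all red points, while for Ppard and Esrra they lie at the level of the red points and below all blue ones.

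Among the fatty acid receptors, Ppara was lower in every obese sample than in any lean sample, and every NAM-treated sample was above all obese ones. How many of all tested genes had groups apart in this way was not counted, here and for the genes below. At an unadjusted limma p under 0.05, 32.5% of all tested genes were lower in obese against lean as deposited. In NAM-treated against obese 41.4% were higher as deposited. Ppara (ENSRNOG00000021463.2), whose product drives the genes of fatty acid oxidation, was measured at 6.98, 8.41, 8.59 and 9.27 TPM in lean, 3.81, 4.68, 4.34 and 5.34 TPM in obese, and 8.45, 8.18, 8.45 and 7.46 TPM in NAM-treated hearts. The lean and NAM-treated values covered the same range, with means of 8.31 ± 0.961 and 8.13 ± 0.468 against 4.54 ± 0.640 in obese (SD, n = 4 each). The groups remained apart after rescaling, at 6.38 to 8.88 in lean, 4.53 to 6.10 in obese and 6.64 to 8.23 with NAM. The obese mean of Ppara was 0.546 times the lean mean as deposited and 0.651 times rescaled. Its log2 change in obese against lean hearts was -0.75 (SE 0.11, adjusted p = 0.00189 by limma) as deposited and -0.53 (SE 0.11, adjusted p = 0.0392) rescaled. The rescaled call held in only 2 of the 12 fits that left out 1 sample (those without lean replicate 1 and without obese replicate 4), and the adjusted p ranged from 0.0264 to 0.0962; it was also lost with no filter on low genes and in a fit to the 8 lean and obese samples. With NAM, Ppara rose by 0.73 log2 over untreated obese hearts (SE 0.11, adjusted p = 0.00292) as deposited; the rescaled difference was 0.45 (SE 0.11), with an adjusted p of 0.0914. Between NAM-treated obese and lean the rescaled difference was -0.08, with a 95% interval from -0.32 to 0.16.

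Ppard was low in obese hearts with and without NAM. Ppard (ENSRNOG00000000503.7), the second fatty acid receptor of heart muscle, stood at 4.04, 2.43, 2.65 and 2.92 TPM in lean, 1.51, 1.58, 1.58 and 1.71 TPM in obese, and 1.31, 1.75, 2.25 and 1.70 TPM in NAM-treated hearts. Every lean sample lay above every sample of both obese groups on either scale, and the 2 obese groups overlapped. In obese against lean the log2 change was -0.61 (SE 0.13, adjusted p = 0.00983) as deposited and -0.44 (adjusted p = 0.111) rescaled. NAM-treated against untreated obese differed by 0.08 as deposited and by -0.13 rescaled (95% interval -0.40 to 0.15), with adjusted p of 0.696 and 0.677. Against lean, the NAM-treated hearts were lower, with a log2 change of -0.54 as deposited (adjusted p = 0.0656) and -0.57 (SE 0.13, adjusted p = 0.0401) rescaled. That rescaled call held without obese replicate 1 or without NAM-treated replicate 3, but in none of the other 10 fits that left out 1 sample, where the adjusted p reached 0.0992 without lean replicate 1, the highest lean sample; it was also lost with no filter on low genes and in a fit to the 8 samples of these groups.

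Rxra (ENSRNOG00000009446.4), the shared partner of both receptors, passed the threshold in no comparison. It was measured at 1.97, 2.28, 2.52 and 2.30 TPM in lean, 1.53, 0.884, 2.31 and 1.57 TPM in obese and 1.94, 1.63, 2.62 and 2.08 TPM with NAM. The obese values were the most spread and overlapped with both other groups. The log2 change in obese against lean was -0.37 (SE 0.16, adjusted p = 0.114) as deposited and -0.20 (adjusted p = 0.582) rescaled, and without obese replicate 3, the highest obese sample, the deposited change had an adjusted p of 0.0468. In NAM-treated against obese the log2 change was 0.27 (adjusted p = 0.199 by limma) as deposited and 0.06 (adjusted p = 0.887) rescaled.

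Ppargc1a followed the same order of levels as Ppara. Ppargc1a (ENSRNOG00000004473.6) encodes PGC-1α, the inducible coactivator of mitochondrial gene expression, and was measured at 8.69, 7.53, 9.99 and 7.41 TPM in lean, 4.91, 5.99, 4.24 and 4.73 TPM in obese, and 8.41, 6.82, 7.74 and 8.10 TPM in NAM-treated hearts. All obese samples were below all lean and all NAM-treated samples on either scale, and the lean and NAM-treated values overlapped. It was lower, with a log2 change of -0.66 in obese against lean (SE 0.12, adjusted p = 0.00416) as deposited, and the rescaled difference of -0.43 (SE 0.10) missed the threshold with an adjusted p of 0.0580. NAM-treated hearts were higher than untreated obese ones by 0.56 (SE 0.12, adjusted p = 0.00609) as deposited, and the rescaled difference was 0.28, with an adjusted p of 0.197. Against lean the rescaled difference was -0.15 (95% interval -0.37 to 0.06).

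Ppargc1b (ENSRNOG00000017503.7), which encodes the related coactivator PGC-1β, had the lowest level of the 9 genes. It was measured at 1.70, 1.45, 0.867 and 1.47 TPM in lean, 0.824, 0.705, 0.906 and 0.699 TPM in obese, and 0.846, 1.20, 0.510 and 0.751 TPM with NAM. Of the lean samples 3 were above every obese and NAM-treated sample, and lean replicate 3 lay among them. The log2 change in obese against lean was -0.40 as deposited and -0.27 rescaled, given as a description because the gene passed the filter on low values mainly through its lean samples. It was 0.02 in NAM-treated against obese as deposited and -0.12 rescaled, with adjusted p of 0.925 and 0.744.

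The 2 estrogen-related receptors had different orders of levels across the groups. Esrra (ENSRNOG00000021139.5), encoding the ERRα subtype that PGC-1α is known to induce, was measured at 8.39, 5.60, 5.79 and 6.45 TPM in lean, 4.87, 5.49, 3.97 and 3.25 TPM in obese, and 4.44, 4.07, 5.35 and 3.82 TPM with NAM. As deposited, the lean values lay above both obese groups, which overlapped each other almost wholly at means of 4.40 ± 0.988 and 4.42 ± 0.673 TPM. In obese against lean Esrra was lower, with a log2 change of -0.49 (SE 0.15, adjusted p = 0.0428) as deposited; the rescaled change was -0.27 (adjusted p = 0.367), with overlapping groups. That deposited call held in 4 of the 12 fits that left out 1 sample (without lean 2, obese 2, NAM-treated 2 or NAM-treated 3) and was weakest without lean replicate 1 (adjusted p = 0.122). With NAM the difference from untreated obese was 0.02 (95% interval -0.31 to 0.35) as deposited and -0.25 (-0.56 to 0.06) rescaled.

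Esrrg (ENSRNOG00000002593.4), encoding the ERRγ subtype that maintains oxidative metabolism in heart muscle, was measured at 7.05, 6.37, 6.29 and 5.30 TPM in lean, 4.16, 5.30, 4.18 and 4.62 TPM in obese, and 8.53, 6.83, 8.66 and 6.93 TPM with NAM. The NAM-treated samples were above all obese samples on either scale and reached past the lean range in 2 samples, while the lowest lean and the highest obese value were practically the same. Esrrg rose by 0.65 log2 in NAM-treated against obese hearts (SE 0.11, adjusted p = 0.00359) as deposited, and the rescaled difference was 0.37 (SE 0.09), with an adjusted p of 0.0938. In obese against lean it was lower, with a log2 change of -0.38 (SE 0.11, adjusted p = 0.0354) as deposited and differed by -0.16 (adjusted p = 0.413) rescaled. That deposited call held in 6 of the 12 fits that left out 1 sample; it was lost without lean 1, 2 or 3 and without obese 1, 3 or 4, with an adjusted p of up to 0.101 without lean replicate 1. NAM-treated hearts differed from lean by 0.27 as deposited and 0.21 rescaled (95% interval 0.01 to 0.41), with adjusted p of 0.250 and 0.280.

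Nrf1 and Tfam, the members that link the network to mitochondrial DNA, had their highest group means as deposited in NAM-treated hearts. Nrf1 (ENSRNOG00000008752.7), which encodes nuclear respiratory factor 1, was measured at 1.80, 2.46, 1.85 and 1.88 TPM in lean, 1.06, 2.15, 1.42 and 0.925 TPM in obese, and 2.07, 2.06, 2.47 and 1.76 TPM with NAM. Obese replicate 2 lay within both other groups and the other 3 obese samples lay below them. No comparison of Nrf1 passed the threshold (adjusted p = 0.120 and 0.0634 for obese against lean and NAM-treated against obese as deposited, with log2 changes of -0.35 and 0.39), but without obese replicate 2 these became 0.0231 and 0.0112. The rescaled changes were -0.19 and 0.20 (adjusted p = 0.560 and 0.562 by limma). Neither passed rescaled in any of the 12 fits that left out 1 sample.

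Tfam (ENSRNOG00000000613.6) was measured at 16.7, 19.2, 16.6 and 24.2 TPM in lean, 15.6, 17.4, 14.7 and 15.5 TPM in obese, and 23.0, 21.6, 20.9 and 23.3 TPM with NAM. The NAM-treated samples were above all obese samples as deposited, and 1 lean sample was the highest of all. Tfam rose by 0.47 log2 in NAM-treated against obese hearts (SE 0.11, adjusted p = 0.00980) as deposited; after rescaling the groups overlapped and the difference was 0.16 (adjusted p = 0.523). In obese against lean the change was -0.25 as deposited and -0.01 rescaled, with adjusted p of 0.127 and 0.984, and its sign was positive, at 0.00 and 0.04, after quantile normalization and in TPM recomputed without mitochondrially encoded genes.

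Counted over the 9 genes, 5 passed as lower in obese against lean hearts as deposited (Ppara, Ppard, Ppargc1a, Esrra and Esrrg), where 16.5% of all tested genes were lower and 0.352% higher. After rescaling 1 passed as lower (Ppara), where 0.751% of all tested genes were lower and 0.589% higher. Of the 5 deposited calls, those of Ppara, Ppard and Ppargc1a held in each of the 12 fits that left out 1 sample. Under quantile normalization only Ppara passed (-0.54, adjusted p = 0.0443), and in TPM recomputed without the mitochondrially encoded genes none passed, with Ppara at -0.54 (adjusted p = 0.0776).

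In NAM-treated against untreated obese hearts, 4 of the 9 genes passed as higher as deposited (Ppara, Ppargc1a, Esrrg and Tfam), where 28.8% of all tested genes were higher and 0.466% lower. The share of the 9 genes was thus of the order of the background, and each of the 4 calls held in all 12 fits that left out 1 sample. After rescaling 0 of the 9 passed by limma, where 0.2% of all tested genes were higher and 0.513% lower. At an unadjusted p under 0.05 there were 3 (Ppara, Ppargc1a and Esrrg, all higher), where 7.27% of all tested genes were higher and 8.42% lower. In TPM without mitochondrially encoded genes 2 passed, Ppara at 0.62 (adjusted p = 0.0351) and Esrrg at 0.53 (adjusted p = 0.0334), and under quantile normalization 0 passed. The estimates for Ppard, Ppargc1b and Esrra were near 0 as deposited and below 0 under rescaling, quantile normalization and the removal of mitochondrially encoded genes. This comparison and the previous one share the obese samples, so their estimates are not independent.

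In NAM-treated obese against lean hearts, 0 of the 9 genes passed by limma as deposited, where 0.865% of all tested genes were higher and 0.969% lower. At an unadjusted p under 0.05 there were 4 (Ppard, Ppargc1b and Esrra lower, Esrrg higher), where 10.6% of all tested genes were higher and 6.39% lower, and Ppargc1b had passed the filter mainly through its lean samples. After rescaling Ppard passed as lower, where 1.59% of all tested genes were lower and 0.77% higher. Esrra, for which all NAM-treated samples were below all lean samples on either scale, had a rescaled change of -0.52 (SE 0.14, adjusted p = 0.0758). Ppard also passed as lower under quantile normalization (-0.55, adjusted p = 0.0458) and in TPM without mitochondrially encoded genes (-0.59, adjusted p = 0.0461).

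**Figure D2:**
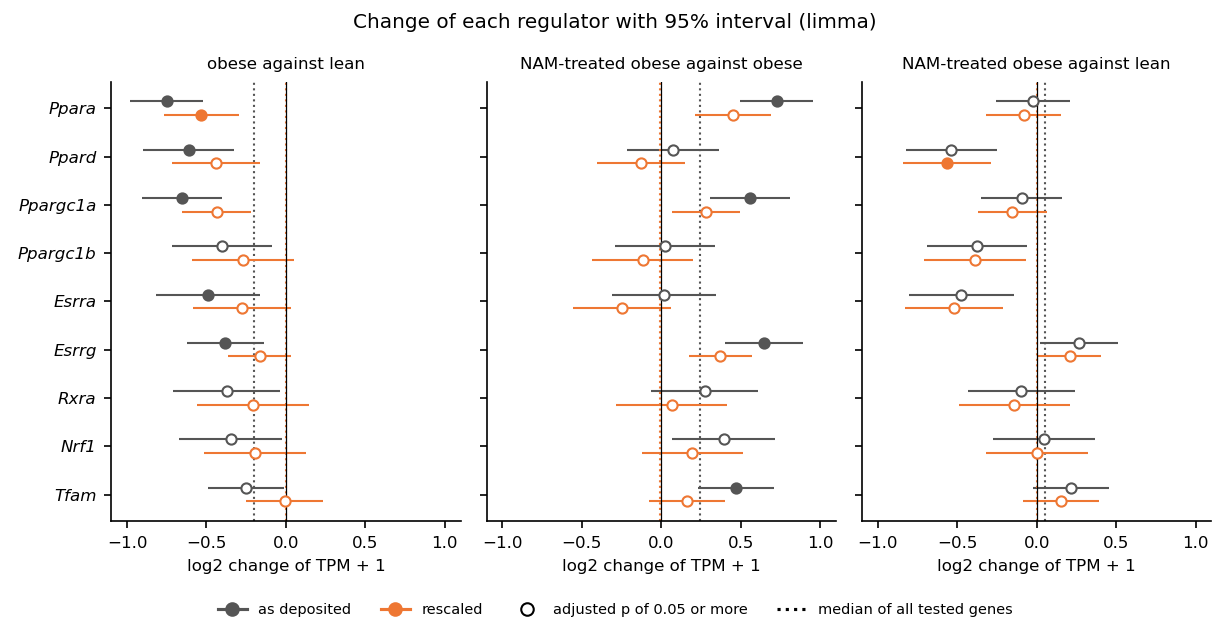
Log2 change of TPM + 1 of each of the 9 genes in the 3 comparisons, with 95% intervals from limma, as deposited (grey) and rescaled (orange); filled points have an adjusted p under 0.05 and dotted lines mark the median of all tested genes. Filled rescaled points appear only for Ppara in obese against lean (-0.53) and Ppard in NAM-treated obese against lean (-0.57).

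A ratio of 2 related genes within a sample does not depend on how that sample is scaled, so ratios give the paralogs relative to each other on one footing. The Ppard to Ppara ratio was 0.578, 0.289, 0.308 and 0.315 in lean, 0.396, 0.338, 0.364 and 0.320 in obese, and 0.156, 0.215, 0.266 and 0.227 in NAM-treated samples. All NAM-treated samples were below all others, and the lean and obese groups overlapped. How often ratios of other gene pairs set groups apart in this way was not counted, here and for the ratio below. The Esrrg to Esrra ratio was 0.840, 1.14, 1.09 and 0.822 in lean, 0.855, 0.966, 1.05 and 1.42 in obese, and 1.92, 1.68, 1.62 and 1.81 with NAM. Here too the NAM-treated samples stood apart from both groups: transcripts of Esrrg and Esrra were about equal in lean and obese hearts, and Esrrg exceeded Esrra in each NAM-treated heart. The mean ratio was 1.76 ± 0.137 with NAM against 1.07 ± 0.246 in obese and 0.972 ± 0.164 in lean (SD, n = 4).

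On the log2 scale the Esrrg to Esrra ratio was higher by 0.73 in NAM-treated against obese and by 0.87 against lean, and the Ppard to Ppara ratio was lower, with a log2 change of -0.74 and -0.75. Each of these 4 differences had the smallest p that an exact 2-sided permutation test of 4 against 4 samples can give (0.0286), and each had an adjusted p of 0.0643 over the 9 ratio tests, so none passed 0.05 after adjustment. Obese and lean differed by -0.01 in the Ppard to Ppara ratio (exact permutation p = 1) and by 0.13 in the Esrrg to Esrra ratio (exact permutation p = 0.571, adjusted p = 0.735). The Ppargc1b to Ppargc1a ratio averaged 0.168 ± 0.0545 in lean, 0.162 ± 0.0402 in obese and 0.109 ± 0.0469 with NAM, with overlapping groups. Its log2 difference between NAM-treated and obese was -0.63 (exact permutation p = 0.143, adjusted p = 0.257). Ppargc1b reached 1 TPM in only 4 of the 12 samples, so this ratio rests on values near the floor and is a description.

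**Figure D3:**
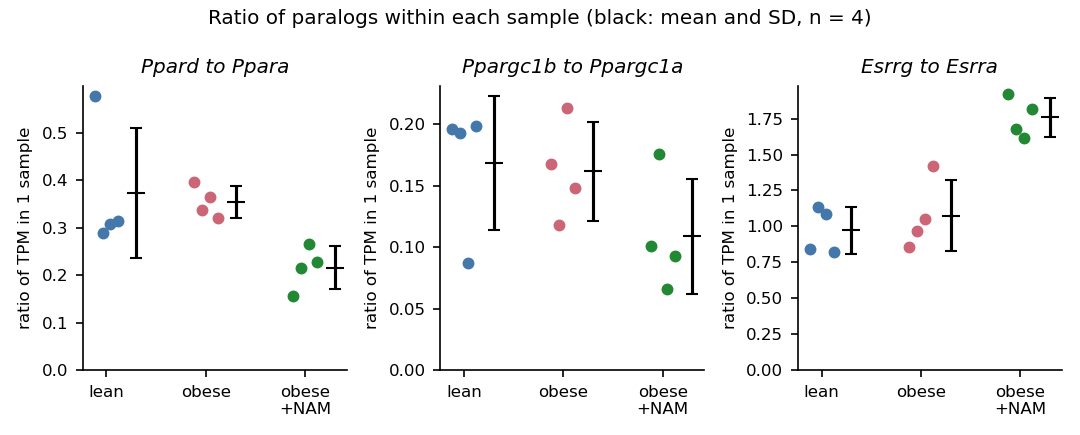
Ratio of the TPM of 2 related genes in each sample (blue lean, red obese, green NAM-treated obese) with group mean and SD in black, vertical axes from 0. NAM-treated samples lie between 0.156 and 0.266 for Ppard to Ppara and between 1.62 and 1.92 for Esrrg to Esrra, outside the range of the other 8 samples in both cases. The share of other gene pairs with such a gap was not counted.

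Of the 5 relatives (Pparg, Rxrb, Rxrg, Esrrb and Pprc1), only Rxrb passed, as lower in obese against lean as deposited (-0.94, adjusted p = 0.0303), and its rescaled change was -0.72 (adjusted p = 0.208). The deposited call of Rxrb was lost without lean 2 or 3 or without obese 2, 3 or 4. Pparg, the receptor of fat cells, was at 2.53 ± 0.642 TPM in lean, 2.65 ± 0.523 in obese and 2.38 ± 0.662 with NAM. Rxrg, a muscle RXR, was at 18.0 ± 1.73, 16.2 ± 1.87 and 18.5 ± 2.49 TPM, above Rxra in every group. The third ERR gene, Esrrb, was at 1.30 ± 0.286, 1.17 ± 0.291 and 1.26 ± 0.413 TPM.

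Of 16 tested coactivators and corepressors, 4 passed as lower in obese against lean as deposited (Lpin1, Perm1, Klf15 and Tbl1xr1), where 16.5% of all tested genes were lower, and 1 rescaled (Lpin1), where 0.751% were. The calls of Klf15 (-0.52, adjusted p = 0.0402) and Tbl1xr1 (-0.30, adjusted p = 0.0320) each held in 6 of 12 fits that left out 1 sample, Klf15 losing it without lean 1 or 3, obese 1, 2 or 4 or NAM-treated 3, and Tbl1xr1 without lean 1, 3 or 4 or obese 1, 3 or 4. Lpin1, whose product lipin 1 coactivates PPARα with PGC-1α, was at 9.16 ± 0.501 TPM in lean, 5.33 ± 0.355 in obese and 8.66 ± 1.79 with NAM. It was lower in obese by -0.68 (adjusted p = 0.00357) as deposited and by -0.46 (adjusted p = 0.0454) rescaled, the latter call holding in 2 of 12 fits that left out 1 sample (without NAM-treated 1 or 4). Perm1, a PGC-1 and ERR induced regulator of striated muscle, was at 31.8 ± 2.13, 19.3 ± 2.59 and 27.2 ± 4.79 TPM, with an obese against lean change of -0.70 (adjusted p = 0.00396) as deposited and -0.45 (adjusted p = 0.0722) rescaled. In NAM-treated against obese hearts 12 of the 16 passed as higher as deposited, where 28.8% of all tested genes did, and 0 after rescaling by limma, where 0.2% did. Among the 12 were Ncoa1 (0.46, adjusted p = 0.00536) and the corepressor Ncor1 (0.46, adjusted p = 0.00997). The list's rescaled median was -0.08 in obese against lean and 0.16 in NAM-treated against obese.

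Upstream of the coactivators lies AMPK, the energy-sensing kinase known to act on PGC-1α. Prkaa2, its catalytic α2 subunit of heart muscle, was at 22.03 ± 1.04 TPM in lean, 11.5 ± 2.01 in obese and 21.1 ± 2.97 with NAM. It fell in obese against lean by 0.89 log2 (adjusted p = 0.00169) as deposited and by 0.65 (adjusted p = 0.00842) rescaled, and both calls held in all 12 fits that left out 1 sample. Prkaa2 rose with NAM against obese by 0.82 (adjusted p = 0.00292) as deposited and 0.52 (adjusted p = 0.0345) rescaled, where the call held in 5 of 12 such fits (without lean 1, 3 or 4, obese 2 or NAM-treated 2). Prkag2, a regulatory γ subunit, went another way, at 4.63 ± 0.758 TPM in lean, 5.47 ± 0.487 in obese and 8.2 ± 0.356 with NAM. It was higher in NAM-treated obese than in lean hearts by 0.72 (adjusted p = 0.00516) as deposited and 0.65 (adjusted p = 0.00441) rescaled. Its rescaled rise of 0.43 in obese against lean (adjusted p = 0.0457) held in 1 of 12 fits that left out 1 sample, the one without lean replicate 1. Of the 22 tested upstream genes, 7 passed as lower in obese against lean as deposited, beside 16.5% of all tested genes, and 1 as lower and 1 as higher rescaled, beside 0.751% and 0.589%. In NAM-treated against obese 13 passed as higher as deposited and 1 rescaled, beside 28.8% and 0.2% of all tested genes. Among the 13 were Thrb, a thyroid hormone receptor (0.66, adjusted p = 0.00305), and Mef2a, a muscle transcription factor (0.70, adjusted p = 0.00421).

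Among known PPAR target genes the rescaled calls in obese hearts were all rises, while Ppara itself was lower there. Of 27 tested, 2 passed as higher, among them Decr1, and 4 as lower in obese against lean as deposited, and 5 as higher and 0 as lower after rescaling. Among the 4 lower were Fabp3 and Mlycd, and neither passed rescaled. Their deposited calls held in 10 and 11 of 12 fits that left out 1 sample. Across those fits the changes ran from -0.38 to -0.30 and from -0.51 to -0.40. Of the 27 rescaled estimates, 16 were above 0 and 11 below. Of all tested genes 0.352% were higher and 16.5% lower as deposited, and 0.589% higher and 0.751% lower rescaled. Decr1, which prepares unsaturated fatty acids for oxidation, was at 115 ± 11.1 TPM in lean, 159 ± 21.8 in obese and 218 ± 28.8 with NAM, and its rescaled rise in obese was 0.72 (adjusted p = 0.00508). The deposited call of Decr1 (0.46, adjusted p = 0.0216) was lost without lean 3 or 4 or without obese 1. Further rescaled rises were those of Ech1 (0.50, adjusted p = 0.00990), Acot2 (0.50, adjusted p = 0.0253) and Acaa2 (0.40, adjusted p = 0.0360), the last named after its value was seen. Acot2, a mitochondrial acyl-CoA thioesterase, lost its rescaled call without lean 2, 3 or 4 or without obese 2 (adjusted p up to 0.0708).

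In NAM-treated obese against lean hearts 6 PPAR targets passed as higher on both scales, where 0.865% of all tested genes did as deposited and 0.77% rescaled. They included Decr1, Ech1, Acot2, and Hadha and Hadhb, the subunits of the mitochondrial trifunctional protein. Decr1 was higher by 0.91 (adjusted p = 0.00266) as deposited and 0.85 (adjusted p = 0.00167) rescaled, and Acot2 by 0.81 (adjusted p = 0.00243) and 0.74 (adjusted p = 0.00208). The calls of Decr1, Ech1 and Acot2 held in all 12 fits that left out 1 sample on either scale. Those of Hadha and Hadhb as deposited held in 6 and 9 of them; Hadha lost it without lean 2, 3 or 4 or NAM-treated 1, 3 or 4, Hadhb without lean 2 or NAM-treated 3 or 4, and Hadha lost its rescaled call without lean 2 or NAM-treated 3 or 4. In the same contrast Ppara itself differed by -0.02 as deposited. In NAM-treated against obese hearts 14 of the 27 passed as higher as deposited, where 28.8% of all tested genes did, and 0 after rescaling by limma, where 0.2% did. Acsl1, which activates long-chain fatty acids, was among the 14 (0.59, adjusted p = 0.00421). The rescaled median of the PPAR targets was 0.03 in obese against lean and 0.03 in NAM-treated against obese.

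ERR target genes, which encode enzymes of the citric acid cycle and subunits of the respiratory chain, lay lower in obese hearts as a set of estimates. All 27 tested passed as lower in obese against lean as deposited, where 16.5% of all tested genes did, and 1 passed rescaled, where 0.751% did. All 27 rescaled estimates were below 0, with a median of -0.18 beside 0.00 over all tested genes. The fall was not particular to this list: of the 12 cardiomyocyte markers 11 were below 0 and 1 above, with a rescaled median of -0.26. In NAM-treated against obese the rescaled median of these markers was -0.04. The 1 rescaled call was Atp2a2, the calcium pump of the sarcoplasmic reticulum, at 1077 ± 113 TPM in lean, 667 ± 104 in obese and 1109 ± 109 with NAM. Atp2a2 was lower, with a log2 change of -0.70 (adjusted p = 0.00309) as deposited and -0.44 (adjusted p = 0.0427) rescaled, the latter holding in 2 of 12 fits that left out 1 sample (without obese 1 or 2). Cs, citrate synthase, was at 242 ± 14.3 TPM in lean, 171 ± 22.9 in obese and 258 ± 13.6 with NAM. In NAM-treated against obese hearts 24 of the 27 passed as higher as deposited, Cs by 0.60 (adjusted p = 0.00292), where 28.8% of all tested genes did. After rescaling 0 passed by limma, where 0.2% of all tested genes did, and the median was 0.12.

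A pair of cytochrome c oxidase subunits of striated muscle among the ERR targets stayed below lean with NAM. Cox8b was at 4376 ± 323 TPM in lean, 3075 ± 186 in obese and 3250 ± 125 with NAM, and in NAM-treated obese against lean it was lower, with a log2 change of -0.43 (adjusted p = 0.00746) as deposited and -0.49 (adjusted p = 0.00600) rescaled. Under quantile normalization, which ties the highest values of all samples together, its sign turned, to 0.08 in obese against lean and 0.05 in NAM-treated obese against lean. Cox6a2, named after its value was seen as the second of the 2 calls in this contrast, was at 713 ± 79.5, 485 ± 34.2 and 477 ± 46.5 TPM. Ndufs8, a complex I subunit on the NRF1 and GABP list, was likewise at 80.6 ± 10.5, 49.9 ± 4.71 and 52.8 ± 2.93 TPM, and lower in NAM-treated obese than in lean hearts by -0.60 (adjusted p = 0.0108) as deposited and -0.66 (adjusted p = 0.00611) rescaled.

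Of the 12 tested genes of the NRF1 and GABP list, 7 passed as lower in obese against lean as deposited and 1 rescaled, beside 16.5% and 0.751% of all tested genes. The rescaled call was Atp5mc1, a subunit of ATP synthase (-0.36, adjusted p = 0.0379). That call held in 4 of 12 fits that left out 1 sample (without lean 3, obese 1, or NAM-treated 2 or 3). With NAM 7 were higher than in obese as deposited and 0 rescaled by limma, beside 28.8% and 0.2% of all tested genes. Against lean 2 were lower as deposited (Cox5b and Ndufs8) and 3 rescaled (Cox5b, Ndufs8 and Atp5mc1), beside 0.969% and 1.59% of all tested genes. The calls of Ndufs8 held in all 12 fits that left out 1 sample; Cox5b held in 3 as deposited (without obese 1, 2 or 3) and in 8 rescaled (lost without lean 1 or 2 or NAM-treated 1 or 4), and Atp5mc1 in 8 rescaled (lost without lean 2 or NAM-treated 1, 3 or 4). Around Tfam, 5 of 17 tested genes of mitochondrial DNA copying and transcription passed as lower in obese as deposited and 0 rescaled by limma, beside 16.5% and 0.751% of all tested genes. Lrpprc, which stabilizes mitochondrial messenger RNA, was at 33.1 ± 2.99 TPM in lean, 22.3 ± 3.65 in obese and 33.9 ± 1.67 with NAM, with rescaled differences of -0.31 (adjusted p = 0.134) and 0.28 (adjusted p = 0.192). Tfb2m, the partner of TFAM in starting mitochondrial transcription, was at 25.3 ± 1.1, 18.3 ± 1.81 and 24.6 ± 2.86 TPM. In NAM-treated against obese 9 of the 17 passed as higher as deposited and 0 rescaled, beside 28.8% and 0.2% of all tested genes.

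**Figure D4:**
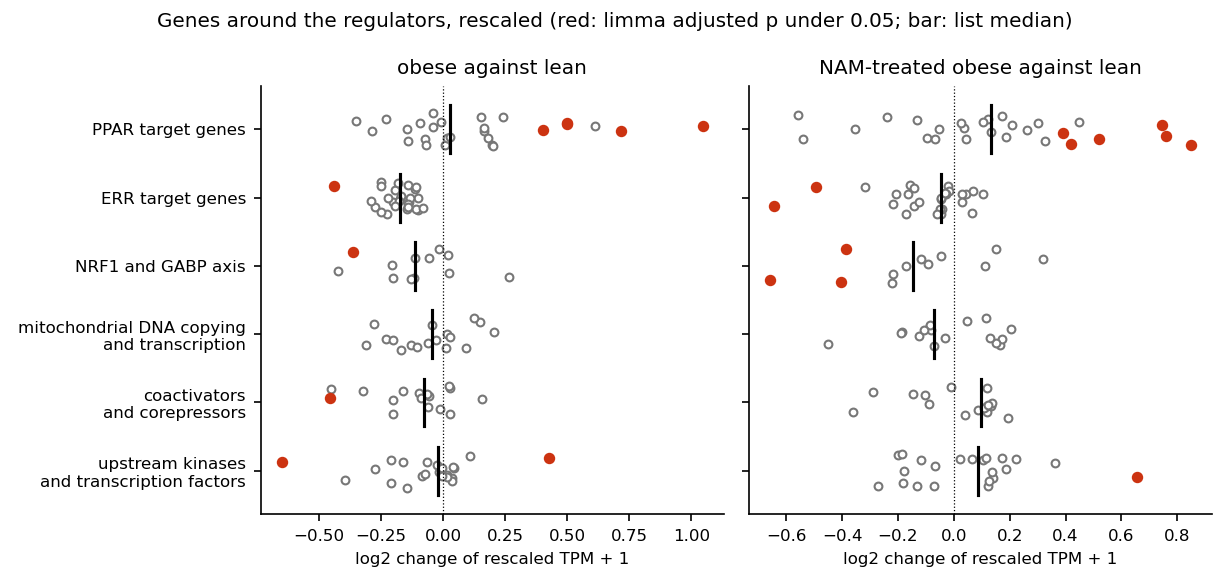
Rescaled log2 change of each tested gene in 6 lists around the regulators, in obese against lean (left) and NAM-treated obese against lean (right), with 1 point per gene, red where the limma adjusted p is under 0.05, and the list median as a black bar. The red points of the PPAR targets all lie above 0 (5 left, 6 right), while the ERR targets cluster below 0 on the left.

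Genes whose rescaled levels ran most like those of Ppara over the 12 samples were Klhl23 (Pearson r = 0.911, Spearman rho = 0.916), Rhot1 (0.885 and 0.895) and Osgepl1 (0.874 and 0.916). Rhot1, which encodes the mitochondrial transport GTPase Miro1, averaged 24.6 TPM in lean, 17.9 in obese and 26.3 with NAM. For Ppargc1a they were Ankrd52 (0.918 and 0.958), Cacul1 (0.904 and 0.846) and Opa1 (0.902 and 0.853). Opa1, which fuses the inner mitochondrial membrane, averaged 38.4, 26.1 and 37.2 TPM. These correlations are descriptions over samples that share 3 groups and 1 library each, picked as the highest of all tested genes.

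Besides the cardiomyocyte markers given above, other features of the samples varied between the groups. Fibroblast markers summed to 621 to 669 TPM in lean, 543 to 954 in obese and 546 to 671 with NAM, and macrophage markers to 70 to 112, 45 to 207 and 100 to 110. Gene by gene after rescaling, all 9 tested fibroblast markers were estimated higher in obese against lean (median 0.47 log2, 0 passed by limma) and all 9 lower in NAM-treated against obese (median -0.56, 2 passed). All 9 tested macrophage markers were likewise estimated higher in obese (median 0.39) and lower with NAM (median -0.24), with 0 passing by limma in either comparison. The rescaled estimates of Ppara, Ppargc1a, Esrrg, Rxra, Nrf1 and Tfam had the opposite signs in both comparisons, which share the obese samples. Of these, Tfam in obese against lean (-0.01) and Rxra in NAM-treated against obese (0.06) were near 0. Their signs turned in 3 and 2 of the 12 fits that left out 1 sample. The rescaled estimates of Ppard, Ppargc1b and Esrra were below 0 in both comparisons. Endothelial markers summed to 704 to 828, 707 to 968 and 605 to 815 TPM. Erythroid markers summed to 764 to 1724, 1817 to 4410 and 544 to 2564 TPM, so that the obese range lay above the lean one. Of 10 adipocyte markers 6 were in the table; they summed to 22 to 28, 19 to 25 and 21 to 27 TPM, with Plin1 at 0 in all lean samples and Adipoq at 3.25 ± 0.184, 3.43 ± 0.199 and 4.62 ± 1.16 TPM. Genes of the circadian clock, which is known to drive Ppara and Ppargc1a with time of day, summed to 67 to 124 TPM in lean, 62 to 94 in obese and 112 to 126 with NAM. In NAM-treated against obese 4 of 16 clock genes passed as higher as deposited, a share close to the 28.8% of all tested genes, and 0 passed rescaled by limma, where 0.2% of all tested genes did. The rescaled median of the 16 was 0.32 beside -0.01 over all tested genes, with 10 estimates above 0 and 6 below. As deposited Tef was higher by 0.93 (adjusted p = 0.00589), Nr1d2 by 0.86 (adjusted p = 0.00832), Cry2 by 0.58 (adjusted p = 0.00447) and Ciart by 0.91 (adjusted p = 0.0427). The call of Ciart held in 3 of 12 fits that left out 1 sample (without lean 1 or 4 or obese 4). The part of cell makeup, blood content or time of sampling in the levels of the 9 regulators was not tested.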

How the data were processed

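RNA-seq of rat cardiac muscle (12 samples, 4 per group) was analysed from a gene table of TPM that the authors deposited, with the Rnor_6.0 assembly and limma named in the submitters' processing notes; no source used here names the aligner or quantifier. Libraries were strand-specific, per the labels' protocols. TPM keeps no depth, so no counting interval can be given. In the NAM-treated columns, which hold TPM like the others, 498 genes have a text mark in place of a number. These genes were left out, and 17104 were used. No 2 of the 66 sample pairs were identical.

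A gene was kept if 4 or more of the 12 samples reached 1 TPM (10526 genes), and log2(TPM + 1) was fitted over 3 group means with limma 3.58.1 in R 4.3.3 (eBayes with trend and robust), as deposited and after median-of-ratios rescaling. A fold change on this scale understates the change of low genes. Adjusted p are limma's, 2-sided, Benjamini-Hochberg over all kept genes, threshold 0.05. Ratios were compared by exact 2-sided permutation, adjusted over 9 tests. The fitting procedure was checked on simulated data with known changes. It recovered 86% of changes of 1 log2 and 44% of changes of 0.5 log2, with 6 false calls. A change of that smaller size that did not pass is therefore not shown to be absent.

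Named genes were all 9 members, per list up to 4 genes with the smallest p in obese against lean and in NAM-treated against obese on either scale, Pparg and Adipoq, and the 3 genes most like Ppara and Ppargc1a; some genes that meet this rule are not reported here. Genes outside it are marked. The members and lists were chosen with earlier results of these data known. Replicate numbers did not pair the samples. Alternatives were pseudocounts of 0.1 and 5, 2 other filters, quantile normalization, arrayWeights, TPM without mitochondrially encoded genes, fits to 8 samples, eBayes with neither trend nor robust, a replicate block, and leaving out each sample.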

Additional observations from a re-analysis of the deposited data

Results flagged for a closer look

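In 3 of 36 groups of 4 values (9 genes and 3 ratios in 3 groups), 1 sample lay far from the others: its gap to the nearest value, divided by the range of the group, was above the critical value of Dixon's test for 4 values. Chance alone flags about 1 in 20 such groups. Nrf1 in lean replicate 2 (2.46 TPM against 1.80 to 1.88 in the other 3) gave 0.871. The Ppard to Ppara ratio in lean replicate 1 (0.578 against 0.289 to 0.315) gave 0.911, and this sample also had the highest lean levels of Ppard and Esrra. The Ppargc1b to Ppargc1a ratio in lean replicate 3 (0.0868 against 0.192 to 0.199) gave 0.946, where the sample had the lowest lean level of Ppargc1b and the highest of Ppargc1a.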

How the results depend on the processing

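The counts of the 9 genes that passed depended on the scale. As deposited, 5 were lower in obese against lean, and this became 3 with no filter on low values, 1 under quantile normalization, 0 in TPM without mitochondrially encoded genes and 3 to 6 when 1 sample was left out. The 4 higher with NAM against obese became 0 under quantile normalization and 2 without mitochondrially encoded genes, and were 4 to 5 when 1 sample was left out. Against lean, 0 passed as deposited, also with any 1 sample left out, and 1 passed under quantile normalization and without mitochondrially encoded genes. Rescaled, the 1 lower gene in obese against lean became 0 with no filter, without trend and robust, or in the fit to 8 samples, 2 of the 5 genes tested with a mean of at least 5 TPM, and 0 to 1 with 1 sample left out. The 1 lower gene in NAM-treated obese against lean (Ppard) became 0 with no filter or in the fit to 8 samples. This count was 0 to 1 with 1 sample left out. With a mean of at least 5 TPM the count was also 0, but there Ppard, at a mean of 2.12 TPM, was removed by the filter and not tested. Rescaled NAM-treated against obese stayed at 0 when 1 sample was left out.

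Same-numbered samples of different groups correlated from -0.0500 to 0.0745 in their deviations over 12 pairs, 3 of 12 samples were most like their own number, and the numbers are not taken to pair them. With the replicate number as a block, 3 genes passed in obese against lean as deposited and 0 rescaled, and 0 in NAM-treated obese against lean rescaled.

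Signs turned for the estimates below, of which Cox8b (-0.51 in obese against lean and -0.43 in NAM-treated obese against lean) and Fabp3 (-0.35 in obese against lean) had passed as lower as deposited. Under quantile normalization Tfam was 0.0044 in obese against lean, and Ppard, Ppargc1b and Esrra were -0.090, -0.096 and -0.23 in NAM-treated against obese; without mitochondrially encoded genes they were 0.038, -0.073, -0.12 and -0.17, and Ppara was 0.077 in NAM-treated obese against lean. Quantile normalization gave Fabp3 0.057 and Cox8b 0.083 in obese against lean, and Cox8b 0.050 in NAM-treated obese against lean. With arrayWeights Ppargc1b was -0.034 in NAM-treated against obese, and rescaled Nrf1 was -0.021 in NAM-treated obese against lean and Fabp3 0.012 in NAM-treated against obese. With 1 sample left out, the deposited NAM-treated against obese change ran from -0.0073 to 0.16 for Ppard, -0.070 to 0.11 for Ppargc1b and -0.092 to 0.11 for Esrra, and that of NAM-treated obese against lean from -0.096 to 0.025 for Ppara and -0.013 to 0.11 for Nrf1. Rescaled, it ran from -0.083 to 0.11 for Tfam in obese against lean and from -0.049 to 0.077 for Nrf1 in NAM-treated obese against lean. Rescaled NAM-treated against obese, it ran from -0.097 to 0.20 for Rxra, -0.016 to 0.060 for Ech1, -0.064 to 0.045 for Fabp3, -0.072 to 0.022 for Mb, -0.012 to 0.056 for Cox6c, -0.045 to 0.022 for Cox7c and -0.058 to 0.015 for Atp5mc1. The obese against lean ratio ran from -0.12 to 0.22 for Ppard to Ppara, -0.31 to 0.13 for Ppargc1b to Ppargc1a and -0.0099 to 0.23 for Esrrg to Esrra; with a pseudocount of 1 the first 2 were 0.14 and 0.26, and by medians Ppard to Ppara was 0.17. The causes were not tested.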
